A study of Mus musculus with 8 samples.

Results

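Transcript levels of 10 genes of acute inflammation and of NF-kB feedback were measured in the whole pregnant uterus of mice after diphtheria toxin or PBS. The genes are Il1a, Il1b, Il1rn, Il6, Ptgs2, Nfkbia, Nfkbiz, Tnfaip3, Saa3 and Lcn2, found by matching their symbols to Ensembl IDs, and they make up 10 of the 49585 genes counted. All 10 passed the filter on low counts and were tested. The mice were 8-week-old pregnant Foxp3DTR females, mated with BALB/c males and therefore carrying allogeneic conceptuses. Foxp3DTR mice carry a toxin receptor at the Foxp3 locus, which regulatory T cells use, so the toxin is directed at cells in which that locus is active. The strain is shared by both groups. Females of the DT group received 1 µg of diphtheria toxin in each intraperitoneal injection, at embryonic days 1, 3, 5 and 7, and females of the PBS group received PBS1X on the same schedule. The labels' protocols state that the regimen removes 85% of regulatory T cells. There were 4 libraries per group, DT replicates 1, 3, 4 and 5 and PBS replicates 1, 2, 4 and 6, each taken as 1 female. The entire uterus was collected at day 8 with the fetal tissue inside it. In such bulk tissue, fewer cells of a type and less RNA per cell cannot be told apart.

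NF-kB is a family of transcription factors held in the cytoplasm by inhibitors of the IkB type and released when receptors for interleukin-1, TNF or microbial products are engaged. Its targets include cytokines such as IL-1 and IL-6, the prostaglandin-forming enzyme COX-2 and acute-phase proteins, and also the genes of its own inhibitors, so that a burst of signalling is followed by feedback. In the uterus, this system is known for its part in implantation, in the influx of leukocytes and in labour.

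The libraries held 94794512 to 109847604 counts each. Foxp3, whose locus carries the receptor, measured 5.1 to 5.72 CPM (reads scaled to library size with TMM factors) in DT libraries and 4.36 to 5.44 CPM in PBS libraries, so it did not check the labels, and group names here are those of the labels. The 10 T cell markers summed to 16.3 to 21.1 CPM in DT libraries and to 8.05 to 9.14 CPM in PBS libraries. By edgeR, 4 of 10 were called higher at an adjusted p under 0.05, where 0.322% of all genes were. For 9 of 10, every DT library was above every PBS library (3.33% of all genes), and 1 had a negative estimate. Stromal and muscle genes of the uterus were abundant in every library: the summed decidual markers measured 4647 to 11680 CPM in DT libraries and 8443 to 14809 CPM in PBS libraries. PBS replicates 1 and 2 stood apart in conceptus markers. The 10 trophoblast markers summed to 13.7 to 53 CPM in DT libraries, to 190 and 472 CPM in PBS replicates 1 and 2, and to 10.7 and 25.2 CPM in PBS replicates 4 and 6. DT replicate 1 had the lowest decidual sum and the highest myometrial muscle sum of all 8 libraries. The sample titles also end in a suffix that the labels do not explain: S3 for DT replicates 1 and 3, S4 for DT replicates 4 and 5, S1 for PBS replicates 1 and 2 and S2 for PBS replicates 4 and 6. The suffix is nested in the groups, so whatever it marks cannot be told apart from the treatment or, within PBS libraries, from the conceptus markers. Values without PBS replicates 1 and 2 are given beside the genes that these libraries move most.

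None of the 10 genes passed the test between DT and PBS uteri, and the groups overlapped for every one of them. By edgeR's quasi-likelihood test, 0 of 10 had an adjusted p under 0.05, where 0.326% of the 22693 genes tested did (0.322% higher and 0.00441% lower). The count with an unadjusted p under 0.05 was 0 of 10, where 8.7% of all genes had one. DESeq2 called 0 of 10 (1.47% of all genes) and limma voom 0 of 10 (0.229%). Without PBS replicates 1 and 2 the count was 0 of 10, but that fit called only 0.00426% of all genes, so it says nothing of stability. DT and PBS libraries were apart for 0 of 10, where they were apart for 5.06% of all genes (DT above for 3.33%, DT below for 1.73%). The log2 fold changes (DT minus PBS) ran from -0.66 for Lcn2 to 0.58 for Saa3, 4 positive and 6 negative, with a median of -0.14, against 0.01 over all genes. These differences were within the spread between females, and how large a change each gene could have had follows from its interval below.

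**Figure D1:**
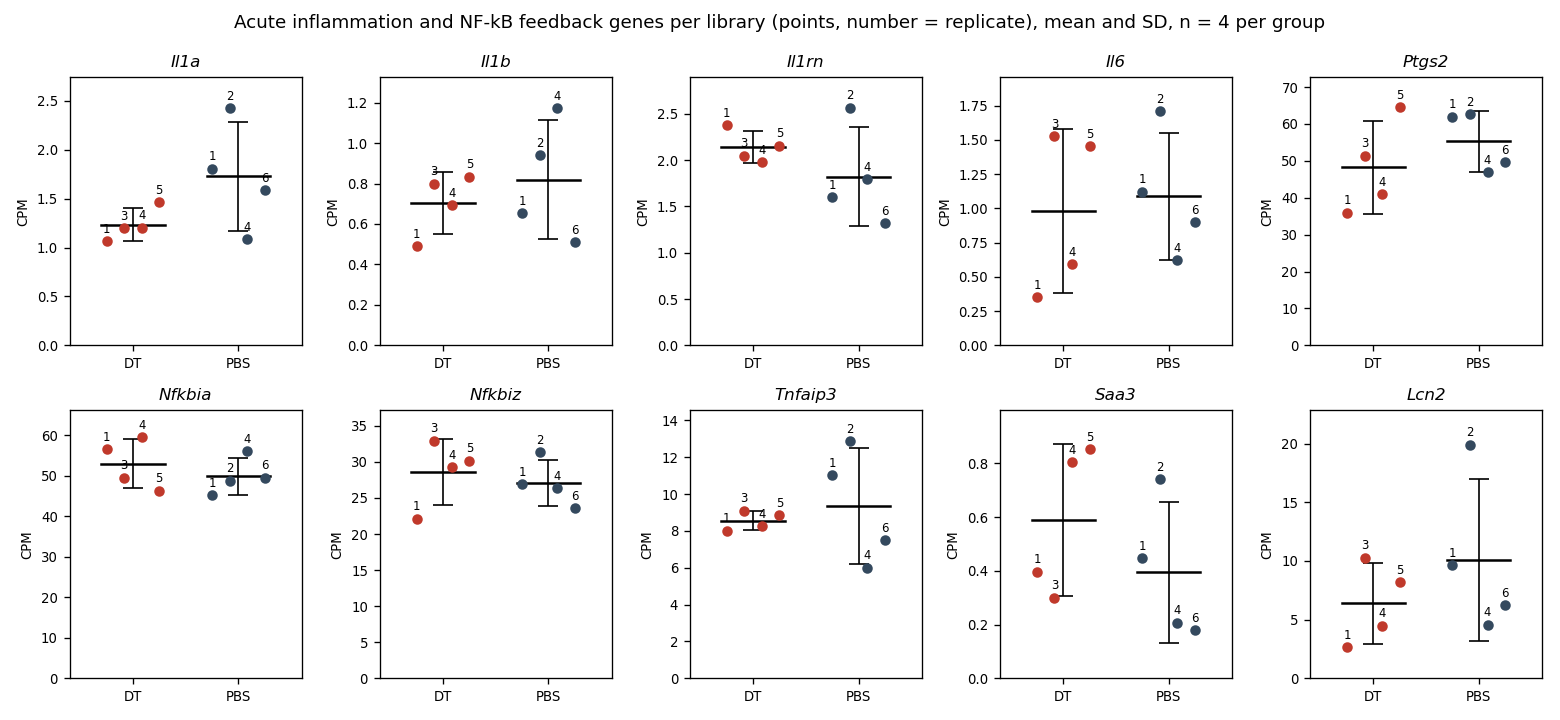
CPM of each of the 10 genes in the 4 DT libraries (left) and 4 PBS libraries (right), with the mean and SD; the small number beside a point is the replicate. The groups overlap in every panel, PBS replicate 2 is the highest library for 5 genes and DT replicate 1 the lowest for 6.

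The 3 interleukin-1 genes lie on chromosome 2 of GRCm38, Il1a close to Il1b and Il1rn far from both, and encode agonists and an antagonist of the same receptor. Il1a (ENSMUSG00000027399, 129299610 to 129309972, minus strand) encodes IL-1 alpha, a cell-associated alarm cytokine. It measured 1.07, 1.2, 1.2 and 1.47 CPM in DT replicates 1, 3, 4 and 5, and 1.81, 2.42, 1.09 and 1.59 CPM in PBS replicates 1, 2, 4 and 6. The DT values lay close together, while PBS replicates 1 and 2 were above every other library. PBS replicate 6 was also above every DT library, and PBS replicate 4 was inside the DT range. Its log2 fold change was -0.48 ± 0.24 (SE; edgeR adjusted p = 0.571; 95% confidence interval -1.04 to 0.07), which was the smallest unadjusted p of the 10 genes (edgeR, 0.0786). Without PBS replicates 1 and 2 it was -0.12 ± 0.22. Antisense gene Gm14023 overlaps its exons and shares 7.95% of its 75-base windows, so reads of these genes may be mixed.

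Il1b (ENSMUSG00000027398, 129364570 to 129371139, minus strand) encodes IL-1 beta, which caspase-1 cleaves to its active form. It measured 0.49, 0.799, 0.694 and 0.835 CPM in DT libraries and 0.653, 0.939, 1.17 and 0.51 CPM in PBS libraries, from 54 to 124 reads. Values of DT libraries fell inside the PBS range except DT replicate 1, which was just under it. The log2 fold change was -0.22 ± 0.29 (SE; edgeR adjusted p = 0.749), with an interval from -0.89 to 0.45. The exons of Il1b overlap those of Il1bos on the plus strand.

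Il1rn (ENSMUSG00000026981, 24336853 to 24351494, plus strand) encodes the IL-1 receptor antagonist, which binds the receptor without signalling. It measured 2.38, 2.05, 1.98 and 2.15 CPM in DT libraries and 1.6, 2.57, 1.79 and 1.32 CPM in PBS libraries. All 4 DT values exceeded 3 of the 4 PBS values, and PBS replicate 2 was above all of them. Its log2 fold change was 0.23 ± 0.20 (SE; edgeR adjusted p = 0.642; 95% confidence interval -0.24 to 0.70), and without PBS replicates 1 and 2 it was 0.46 ± 0.18 (edgeR, unadjusted p = 0.0419, which did not pass after adjustment).

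Because antagonist and agonists compete for the receptor, their read ratios within each library were compared, which needs no scaling between libraries. The ratio of Il1rn to Il1a counts was 2.23, 1.71, 1.64 and 1.47 in DT libraries and 0.886, 1.06, 1.65 and 0.833 in PBS libraries. Every DT ratio was above PBS replicates 1, 2 and 6, and PBS replicate 4 lay among the DT values. The mean ratio was 1.76 ± 0.329 in DT libraries and 1.11 ± 0.376 in PBS libraries (SD, n = 4 each), a log2 difference of 0.71 (1.63-fold) that did not reach the threshold (two-sided exact permutation p = 0.0857; the smallest p this design allows is 0.0286). The ratio of Il1rn to Il1b was 4.86, 2.56, 2.85 and 2.58 in DT libraries and 2.45, 2.74, 1.53 and 2.59 in PBS libraries. Here DT replicate 1 stood alone and the other 3 DT ratios were level with PBS replicates 1, 2 and 6 (two-sided exact permutation p = 0.2). Adjusted over these 2 ratios, the exact permutation p was 0.171 for Il1a and 0.2 for Il1b.

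**Figure D2:**
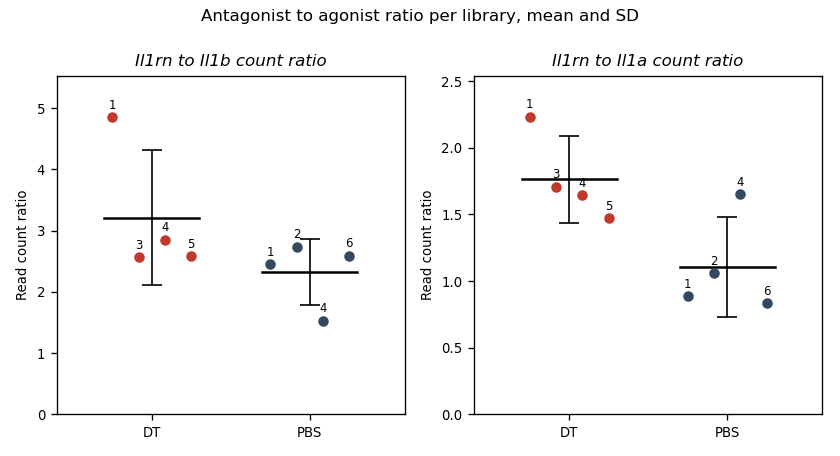
Read count ratio of Il1rn to Il1b (left panel) and of Il1rn to Il1a (right panel) in each DT and PBS library, with the mean and SD; the small number is the replicate. For Il1a, PBS replicate 4 at 1.65 lies among the DT ratios of 1.47 to 2.23, and for Il1b a single DT library, at 4.86, is apart.

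Il6 (ENSMUSG00000025746, chromosome 5, 30013114 to 30019981, plus strand) encodes interleukin-6, a cytokine that drives the acute-phase response through gp130 and STAT3. It measured 0.35, 1.53, 0.592 and 1.46 CPM in DT libraries and 1.12, 1.71, 0.623 and 0.898 CPM in PBS libraries. Each group held high and low libraries, and the DT values alone spread from the lowest of all 8 libraries to just below the highest. The log2 fold change was -0.15 ± 0.50 (SE; edgeR adjusted p = 0.903) and had an interval from -1.31 to 1.00, so changes between 0.404-fold and 2.01-fold were compatible with these libraries. Its sign turned to 0.36 ± 0.63 without PBS replicates 1 and 2, and it also turned without DT replicate 1 (0.14), DT replicate 4 (0.028) or PBS replicate 2 (0.15) alone, all with edgeR adjusted p over 0.05.

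Ptgs2 (ENSMUSG00000032487, chromosome 1, 150100031 to 150108227, plus strand) encodes COX-2, the inducible enzyme that makes the precursor of prostaglandins and that the uterus needs for decidualization. It measured 35.9, 51.4, 40.9 and 64.6 CPM in DT libraries and 62, 62.7, 46.9 and 49.7 CPM in PBS libraries. DT replicate 5 was the highest library and DT replicates 1 and 4 the lowest, so the DT libraries enclosed the PBS range. The log2 fold change was -0.20 ± 0.19 (SE; edgeR adjusted p = 0.664), with an interval from -0.63 to 0.24, and without PBS replicates 1 and 2 it was -0.0054 ± 0.23.

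Of the feedback genes, Nfkbia and Nfkbiz had the narrowest ranges over the 8 libraries among the 10 genes. Nfkbia (ENSMUSG00000021025, chromosome 12, 55489410 to 55492647, minus strand) encodes IkB alpha, which binds NF-kB and returns it to the cytoplasm. It measured 56.5, 49.5, 59.4 and 46.3 CPM in DT libraries and 45.1, 48.7, 56 and 49.5 CPM in PBS libraries. The highest library was only 1.32-fold above the lowest, and both groups covered nearly the same range. Its log2 fold change was 0.09 ± 0.10 (SE; edgeR adjusted p = 0.709), and the interval of -0.14 to 0.32 left room for at most a 1.24-fold rise or a decrease to 0.907-fold.

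Nfkbiz (ENSMUSG00000035356, chromosome 16, 55811375 to 55838899, minus strand) encodes IkB zeta, a nuclear IkB protein that is induced by IL-1 and is needed for a subset of NF-kB targets, Il6 and Lcn2 among them in mouse cells. It measured 22.1, 32.9, 29.3 and 30.2 CPM in DT libraries and 26.9, 31.3, 26.4 and 23.6 CPM in PBS libraries. DT replicate 1 was the lowest library and DT replicate 3 the highest. The log2 fold change was 0.08 ± 0.13 (SE; edgeR adjusted p = 0.797; 95% confidence interval -0.23 to 0.39).

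Tnfaip3 (ENSMUSG00000019850, chromosome 10, 19000910 to 19015657, minus strand) encodes A20, an enzyme that edits ubiquitin chains and stops signalling upstream of the IkB kinase. It measured 8.02, 9.1, 8.24 and 8.84 CPM in DT libraries and 11, 12.9, 6.01 and 7.5 CPM in PBS libraries. The DT values were tight and lay in the gap between PBS replicates 1 and 2 above them and PBS replicates 4 and 6 below. With all libraries the log2 fold change was -0.13 ± 0.22 (SE; edgeR adjusted p = 0.808; 95% confidence interval -0.64 to 0.39). Without PBS replicates 1 and 2 its sign turned, to 0.34 ± 0.13 (edgeR, unadjusted p = 0.0354, which did not pass after adjustment). Trophoblast and yolk sac markers moved with these 2 PBS libraries, and their part in the values of Tnfaip3 was not tested.

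Sequence around the start sites was searched for the letters that NF-kB is known to bind. RefSeq promoter windows of GRCm38.p6, 250 bases before to 50 after each start, were matched by symbol for 9 of the 10 genes (12 windows). Both strands were searched for the kappaB consensus, which is GGG, a purine, 2 bases of any kind, 2 pyrimidines and CC. It occurs in 8.46% of all 32851 windows and, among the 10 genes, in 1 window each of Il6, Nfkbia and Tnfaip3. The 3 windows are printed 5′ to 3′ on the strand of the gene, with matches in capitals, because these are the members whose short window holds the letters. The match of Il6 lies 44 to 35 bases before the start, that of Nfkbia 29 to 20 bases before, and those of Tnfaip3 125 to 116 and 12 to 3 bases before. A match is a description of letters and not evidence of binding.
Il6 chr5:30012864-30013163, plus strand: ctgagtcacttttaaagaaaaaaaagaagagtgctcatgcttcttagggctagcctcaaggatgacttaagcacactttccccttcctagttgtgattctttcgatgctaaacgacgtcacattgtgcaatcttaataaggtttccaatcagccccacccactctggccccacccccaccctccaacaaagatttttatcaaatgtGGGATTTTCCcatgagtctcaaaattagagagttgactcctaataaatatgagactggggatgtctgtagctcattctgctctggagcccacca
Nfkbia chr12:55492598-55492897, minus strand: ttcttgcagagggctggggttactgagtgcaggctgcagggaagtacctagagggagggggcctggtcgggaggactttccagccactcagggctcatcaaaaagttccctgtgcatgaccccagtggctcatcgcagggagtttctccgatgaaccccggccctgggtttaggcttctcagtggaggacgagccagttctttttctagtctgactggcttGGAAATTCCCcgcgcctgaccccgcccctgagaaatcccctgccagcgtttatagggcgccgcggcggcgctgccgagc
Tnfaip3 chr10:19015361-19015660, minus strand: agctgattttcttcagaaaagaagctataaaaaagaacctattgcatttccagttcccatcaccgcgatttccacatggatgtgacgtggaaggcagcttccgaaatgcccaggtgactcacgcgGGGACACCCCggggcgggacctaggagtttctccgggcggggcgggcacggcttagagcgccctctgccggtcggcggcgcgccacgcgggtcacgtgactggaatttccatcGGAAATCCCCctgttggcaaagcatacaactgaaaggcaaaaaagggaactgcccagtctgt
The values of these 3 genes given above overlapped between DT and PBS libraries.

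Of the effector proteins, Saa3 had the largest positive estimate and Lcn2 the largest negative one, and both varied widely between females. Saa3 (ENSMUSG00000040026, chromosome 7, 46711998 to 46715700, minus strand) encodes a serum amyloid A that mouse macrophages and epithelia make outside the liver. It measured 0.397, 0.3, 0.806 and 0.854 CPM in DT libraries and 0.446, 0.743, 0.208 and 0.18 CPM in PBS libraries, from 19 to 88 reads. DT replicates 4 and 5 were highest and PBS replicates 4 and 6 lowest, with the other 4 libraries mixed in between. The log2 fold change was 0.58 ± 0.53 (SE; edgeR adjusted p = 0.652; 95% confidence interval -0.63 to 1.79). Without PBS replicates 1 and 2 all 4 DT libraries exceeded the remaining PBS libraries, at 1.59 ± 0.52 (edgeR, unadjusted p = 0.0218, which did not pass after adjustment).

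Lcn2 (ENSMUSG00000026822, chromosome 2, 32384633 to 32388252, minus strand) encodes lipocalin-2, which binds bacterial iron carriers and is made by neutrophils and inflamed epithelia. It measured 2.65, 10.3, 4.48 and 8.21 CPM in DT libraries and 9.65, 19.9, 4.56 and 6.26 CPM in PBS libraries. PBS replicate 2 was far above the rest and DT replicate 1 was lowest, a 7.53-fold range and the widest of the 10 genes. The log2 fold change was -0.66 ± 0.55 (SE; edgeR adjusted p = 0.632), with an interval from -1.91 to 0.60, and its sign turned without PBS replicates 1 and 2, to 0.24 ± 0.53. In PBS replicate 2 the 10 epithelial markers summed to 510 CPM, against 245 to 282 CPM in DT libraries and 228 to 335 CPM in the other PBS libraries. Keratins carried that excess: Krt8 measured 112 CPM and Krt7 71.4 CPM in PBS replicate 2, while the gland marker Wfdc2 was at its lowest there (21.9 CPM) and Epcam measured 22.1 CPM, against 15.5 to 19.7 CPM in DT libraries and 14.1 to 21.1 CPM in the other PBS libraries. The summed neutrophil markers were 32 to 157 CPM in DT libraries and 60.1 to 198 CPM in PBS libraries, with 0 of 9 tested called, and S100a8 and Mmp9 made up most of the sum in every library. S100a8 ran from 4.96 to 94.5 CPM in DT libraries and from 27.7 to 160 CPM in PBS libraries. Of the 9 markers 6 had positive estimates and 3 negative ones (median log2 difference 0.68). For 4 (S100a9, Retnlg, Csf3r and Ngp) every DT library was above every PBS library, where 3.33% of all genes were so placed. S100a9, for example, ran from 1.96 to 3.85 CPM in DT libraries and from 0.425 to 1.59 CPM in PBS libraries. The negative estimates were those of S100a8 (-0.88), Cxcr2 (-0.74) and Ly6g (-4.5). Ly6g measured 0.0816 to 0.107 CPM in DT libraries and 0.0218, 0.0206, 4.81 and 3.95 CPM in PBS libraries. The part of epithelium, neutrophils or conceptus in the values of Lcn2 was not tested.

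**Figure D3:**
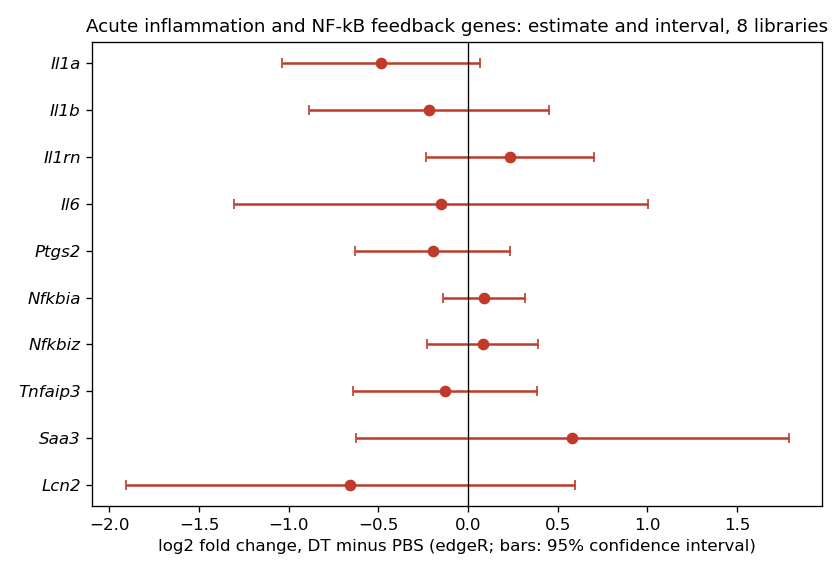
log2 fold change (DT minus PBS) of each gene from the edgeR fit of 8 libraries, with its 95% confidence interval. Every interval crosses 0; that of Nfkbia is narrowest, -0.14 to 0.32, and that of Lcn2 widest, -1.91 to 0.60.

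Per kilobase of exon, levels of the 10 genes ran over a wide span with the same order at its upper end in all libraries. Nfkbia was highest, at 32.9 ± 3.78 CPM per kilobase in DT libraries and 30.9 ± 2.8 in PBS libraries (SD, n = 4 each). Ptgs2 followed, at 10.5 ± 2.77 CPM per kilobase in DT libraries and 12.1 ± 1.79 in PBS libraries, and Nfkbiz, at 5.7 ± 0.918 in DT libraries and 5.39 ± 0.642 in PBS libraries. Ranges over the 8 libraries were separate between Nfkbia and Ptgs2 and between Ptgs2 and Nfkbiz. Lcn2, Tnfaip3, Il1a, Il6, Il1b, Il1rn and Saa3 came next in that order of mean level, from 3.14 CPM per kilobase for Lcn2 to 0.189 for Saa3. From Nfkbiz downward each range overlapped that of its next neighbour, so these ranges did not resolve the order of neighbours. Some genes further apart were separate. The lowest Nfkbiz value (4.41) was above the highest of Tnfaip3 (1.78), and the lowest Tnfaip3 value (0.831) was above the highest of Il6 (0.705).

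Between single females, several of the genes moved in a shared order that cut across the treatment. Il6 and Lcn2 were both highest in PBS replicate 2 and then DT replicate 3, and both lowest in DT replicate 1 and then DT replicate 4. Ptgs2 had the same 2 lowest libraries. Nfkbia had DT replicates 4 and 1 highest, but PBS replicate 1 and then DT replicate 5 lowest, so only 1 end of the order was reversed. In all, PBS replicate 2 was the highest library for 5 genes (Il1a, Il1rn, Il6, Tnfaip3 and Lcn2) and DT replicate 1 the lowest for 6 (Il1a, Il1b, Il6, Ptgs2, Nfkbiz and Lcn2). PBS replicate 2 also held the highest sums of trophoblast (472 CPM), yolk sac (224 CPM) and decidual markers, and DT replicate 1 the lowest decidual sum (4647 CPM) and the highest muscle sum (3705 CPM, against 1564 to 3120 CPM in PBS libraries and 1631 to 2167 CPM in the other DT libraries). Whether tissue content has a part in this order was not tested.

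**Figure D4:**
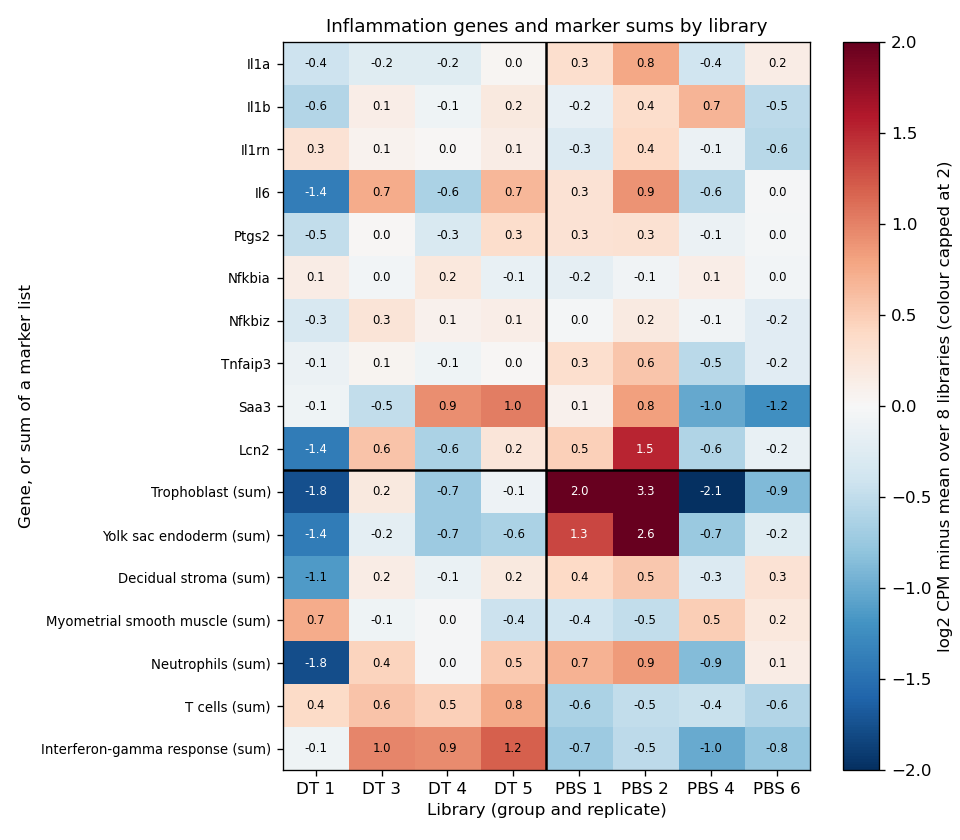
log2 CPM of each gene (upper 10 rows) and of summed marker lists (lower 7 rows) minus its mean over the 8 libraries, DT libraries left of the line and PBS libraries right; colours are capped at 2. Il6 and Lcn2 are both 1.4 below their mean in DT replicate 1, and the T cell and interferon-gamma rows, unlike the 10 genes, separate DT from PBS libraries.

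Genes with the most like pattern over the 8 libraries were sought by Pearson correlation of log2 CPM among 13636 genes, as a description of libraries that share tissue content and treatment. The nearest were Tpbg for Ptgs2 (0.99), Dnah2 for Lcn2 (0.99), Was for Tnfaip3 (0.99), Hyal1 for Il1a (0.98), Eif1-ps1 for Il6 (0.98), Eif3j2 for Il1rn (0.975), Igdcc3 for Nfkbia (0.97), Shisa2 for Nfkbiz (0.96), Polr2d for Il1b (0.96) and Gtf2f2 for Saa3 (0.94). Was encodes the Wiskott-Aldrich protein of blood cells. With so many genes and 8 libraries, values of this size occur for every one of the 10 genes.

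The wider pathway was described with 9 lists of 116 genes, of which 109 were tested, 3 rose and 0 fell by edgeR, where 0.322% of all genes rose. In the lists of NF-kB subunits, of activating adaptors and kinases and of other feedback inhibitors, 0 genes passed by edgeR, DESeq2 or limma voom, and 0 had an unadjusted p under 0.05. Over all genes, edgeR called 0.326%, DESeq2 1.47% and limma voom 0.229%, and 8.7% had an unadjusted p under 0.05 by edgeR. All 5 subunit genes had slightly negative estimates (median log2 fold change -0.10), the nearest to the threshold being Rel at -0.14 ± 0.08 (SE; edgeR adjusted p = 0.571) and Nfkb2, which shares 13.6% of its windows with its neighbours, at -0.09 ± 0.08. Of 13 adaptor and kinase genes, 12 had negative estimates, with a median of -0.09. Irak2, a kinase of the IL-1 receptor complex, had -0.30 ± 0.18 (-0.011 without PBS replicates 1 and 2) and Ikbkb, the catalytic IkB kinase beta, 0.12 ± 0.07. Of 13 other feedback inhibitors, 9 had negative estimates, with a median of -0.09. Irak3, an inactive IRAK kinase that damps IL-1 signalling, measured 38.7, 71.5, 63.9 and 61.3 CPM in DT libraries and 74.4, 75.9, 69 and 77.4 CPM in PBS libraries (log2 fold change -0.33 ± 0.17; edgeR adjusted p = 0.571). Otulin, which removes linear ubiquitin, had -0.17 ± 0.10 (0.0011 without these 2 libraries).

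Among 18 tested targets of NF-kB outside the 10 genes, 2 rose, and both are also induced by interferon-gamma. Irf1 (ENSMUSG00000018899, chromosome 11, 53770014 to 53778374, plus strand), an interferon regulatory factor, measured 43.5, 64.9, 65.7 and 71.7 CPM in DT libraries and 31.4, 31.9, 31.3 and 34.1 CPM in PBS libraries. The groups did not overlap, and DT replicate 1 was the lowest of its group. Irf1 averaged 61.4 ± 12.3 CPM in DT libraries and 32.2 ± 1.32 CPM in PBS libraries (SD, n = 4 each), 1.91-fold higher (log2 fold change 0.93 ± 0.14, SE; edgeR adjusted p = 0.0491). Vcam1 (ENSMUSG00000027962, chromosome 3, 116109949 to 116129688, minus strand), an adhesion molecule for lymphocytes on endothelium, measured 11.7, 11.5, 12.4 and 12.6 CPM in DT libraries and 6.79, 7.23, 7.11 and 5.36 CPM in PBS libraries. It rose 1.82-fold (log2 fold change 0.86 ± 0.11, SE; edgeR adjusted p = 0.0322), with no overlap. Exons of Irf1 overlap Gm17334 and those of Vcam1 overlap Gm43109, each on the opposite strand. The median of the 18 targets was -0.06, and Tnf itself, the cytokine that starts many NF-kB responses, measured 0.428 to 0.563 CPM in DT libraries and 0.529 to 1.13 CPM in PBS libraries. In the interferon-gamma list 6 of 10 genes rose, again beside 0.322% of all genes, and the median log2 difference was 1.55. That list was chosen with earlier results of these data known, so its count is no independent support. The part of interferon-gamma in the values of Irf1 and Vcam1 was not tested.

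The RefSeq window at the upstream start of Irf1 is printed because this gene passed the test and its window holds both motifs. It holds a kappaB match 13 to 4 bases before the start and a match to the interferon-gamma activated sequence, TTCNNNGAA, 90 to 82 bases before it, both in capitals. The other window of Irf1, at a start further downstream, and the 1 window of Tbxas1, which passed the test as well, hold neither motif. No window was available for Vcam1, so it was not searched. Windows with TTCNNNGAA made up 8.3% of all windows, those with both motifs 0.639%, and none of the 12 windows of the 10 genes held TTCNNNGAA.
Irf1 chr11:53769764-53770063, plus strand: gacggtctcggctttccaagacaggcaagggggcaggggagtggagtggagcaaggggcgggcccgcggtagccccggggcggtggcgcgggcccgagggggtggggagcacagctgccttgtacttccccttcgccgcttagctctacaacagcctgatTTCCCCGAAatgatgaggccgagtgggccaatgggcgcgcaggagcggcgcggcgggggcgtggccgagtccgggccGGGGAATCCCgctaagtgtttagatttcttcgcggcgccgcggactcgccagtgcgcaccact
The letters alone do not show which factor bound there.

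In prostaglandin metabolism 1 of 17 genes rose. Tbxas1 (ENSMUSG00000029925, chromosome 6, 38875404 to 39084585, plus strand), the thromboxane synthase of platelets and macrophages that acts downstream of cyclooxygenases, measured 7.81, 5.57, 5.78 and 5.62 CPM in DT libraries and 2.58, 2.87, 3.49 and 3.12 CPM in PBS libraries. Every DT library was above every PBS library, a 2.06-fold rise (log2 fold change 1.04 ± 0.15, SE; edgeR adjusted p = 0.0417). The 10 monocyte and macrophage markers summed to 463 to 521 CPM in DT libraries and 371 to 437 CPM in PBS libraries. Of these markers 8 had positive estimates and 2 negative ones (Cd68 at -0.54 and Ly6c2 at -0.21, log2). By edgeR 1 of 10 was called higher (C1qa, a complement component), where 0.322% of all genes were. For 3 (Adgre1, C1qa and Itgam) every DT library was above every PBS library, where 3.33% of all genes were so placed. DT replicate 1 was highest both for Tbxas1 and for the sum. Among PBS libraries, replicate 4 was highest for Tbxas1 and lowest for the sum, and replicate 1 the reverse. Single markers differed in this. Among PBS libraries, Lyz2, Mrc1 and Itgam were highest in replicate 4 and lowest in replicate 1, as Tbxas1 was. Csf1r, the most abundant marker of the list, was lowest in replicate 4 and highest in replicate 1, and the remaining markers had other orders. The part of these cells in the rise was not tested. The calls for Irf1, Vcam1 and Tbxas1 depended on single libraries. Without DT replicate 3, 4 or 5, or PBS replicate 1, 2 or 6, none of the 3 passed, and in those fits edgeR called 0 of all genes. Without PBS replicate 4 only Vcam1 passed, and without DT replicate 1 all 3 did. Adjusted p over these 8 fits ran from 0.000708 to 0.214 for Irf1, from 0.0289 to 0.132 for Vcam1 and from 0.0296 to 0.164 for Tbxas1, while their log2 fold changes stayed between 0.78 and 1.12.

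**Figure D5:**
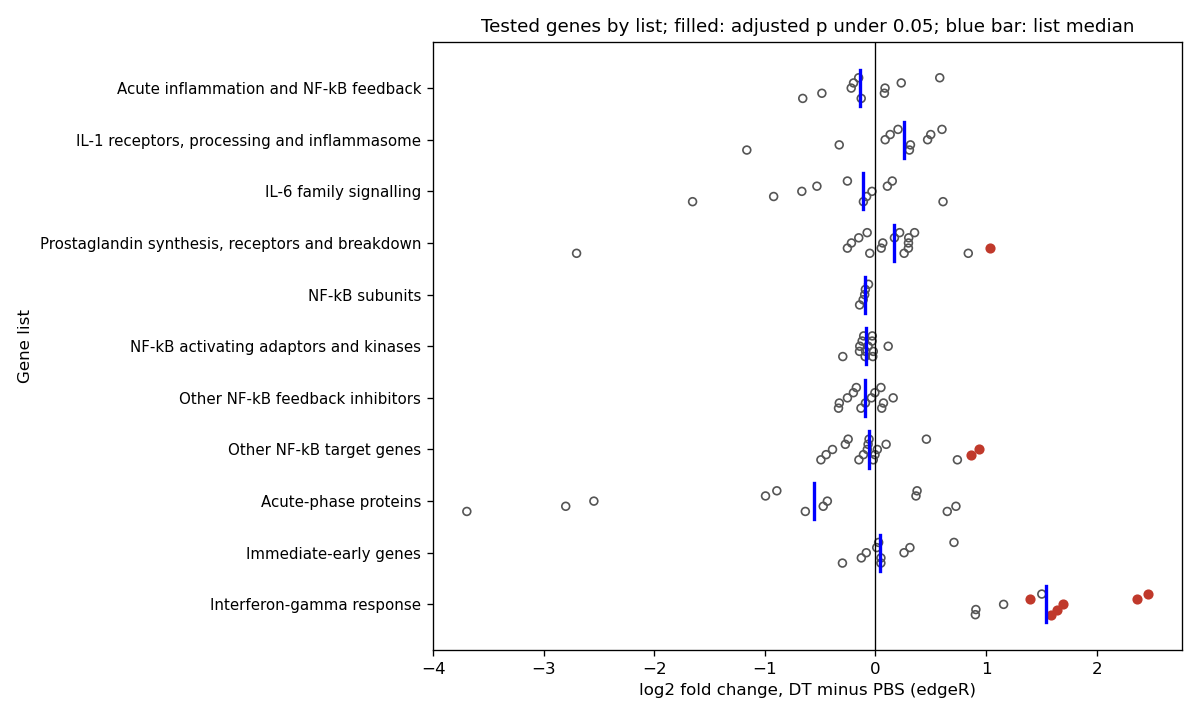
log2 fold change (DT minus PBS) of every tested gene in the 10-gene set, the 9 pathway lists and the interferon-gamma list; filled points passed the edgeR test, and the blue bar is the list's median. The filled points outside the interferon-gamma list are Irf1, Vcam1 and Tbxas1.

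Receptors, downstream cytokine genes and acute-phase genes gave no further calls. In the list of IL-1 receptors, processing enzymes and inflammasome genes, 0 of 10 passed by edgeR, DESeq2 or limma voom and 4 had an unadjusted p under 0.05, where 8.7% of all genes had one, with a median log2 fold change of 0.26. Casp1, which cleaves IL-1 beta, measured 10.7, 15.4, 15.3 and 16.8 CPM in DT libraries and 10.8, 10.7, 8.49 and 8.38 CPM in PBS libraries (log2 fold change 0.60 ± 0.16, SE; edgeR adjusted p = 0.36). Only DT replicate 1 reached into the PBS range. Casp4, the sensor of intracellular lipopolysaccharide, measured 13.8, 16, 14.5 and 18.1 CPM in DT libraries and 10.8, 13.5, 8.89 and 11.7 CPM in PBS libraries, without overlap (log2 fold change 0.47 ± 0.14; edgeR adjusted p = 0.457). In the IL-6 family list 0 of 11 passed by these 3 tools and 1 had an unadjusted p under 0.05. Lif, which is required for implantation in mice, measured 1.07 to 1.47 CPM in DT libraries and 1.16 to 3.99 CPM in PBS libraries (log2 difference -0.92 ± 0.35, SE; edgeR adjusted p = 0.558), and without PBS replicates 1 and 2 the difference was -0.21. Osm, a related cytokine, had a difference of -1.65 ± 0.80 (edgeR adjusted p = 0.571), with 0.541 to 0.67 CPM in DT libraries and 1.95, 4.93, 0.453 and 0.283 CPM in PBS libraries. Its sign turned to 0.71 without PBS replicates 1 and 2, and without PBS replicate 2 alone it was -0.56.

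Of 12 tested acute-phase genes 0 passed by these 3 tools and 3 had an unadjusted p under 0.05 (8.7% of all genes), with a median log2 fold change of -0.55. Orm1, an orosomucoid that shares 13.8% of its windows with Orm2, measured 0.0156, 3.52, 0.714 and 3.77 CPM in DT libraries and 31, 62.5, 0.803 and 9.2 CPM in PBS libraries (log2 fold change -3.69 ± 1.43; edgeR adjusted p = 0.558). Its high values were those of PBS replicates 1 and 2, the libraries high in trophoblast and yolk sac markers, whose part was not tested, and without them the estimate was -1.33. For Fga, a fibrinogen chain, the estimate was -2.55 ± 0.99 (log2, SE; edgeR adjusted p = 0.558), and without these 2 libraries it was 0.012. Immediate-early genes, which respond to tissue handling as well as to signals, had 0 of 10 past the test by any of the 3 tools or at an unadjusted p under 0.05. The estimate was 0.71 ± 0.41 (log2, SE) for Fosb and 0.26 ± 0.15 for Egr1, with edgeR adjusted p of 0.571 and 0.572.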

How the data were processed

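RNA from the whole uterus of 8 females was sequenced as paired reads of about 75 bases on an Illumina NextSeq after RNAlater storage, Trizol extraction and Kapa mRNA library preparation, per the labels' protocols. The authors deposited raw read counts per Ensembl gene, in 1 series table and 1 table per library, which differed in 0 cells. The build is GRCm38 and the tools named are featureCounts, HISAT2, Trimmomatic, DESeq2 and SAMtools, per the submitters' processing notes; versions, annotation and strand setting were not found in those sources, so overlapping genes on opposite strands cannot be told apart.

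Symbols came from GENCODE M21 (49326 of 49585 IDs matched; the other 259 held 0.076% of counts). edgeR 4.0.16 in R 4.3.3 was run with filterByExpr (minimum count 10, total 15), TMM factors and the robust quasi-likelihood test, treatment only, Benjamini-Hochberg adjustment over 22693 genes, calls at adjusted p under 0.05; the biological coefficient of variation was 25%. SE and intervals come from the fit's F statistic. DESeq2 1.42.0 and limma 3.58.1 (voom) were alternatives. On simulated data of this size, edgeR recovered 62 of 100 genes changed by a log2 fold change of 1 and 96 of 100 changed by 2, with 5 false calls. The changed genes were drawn from those with a mean over 1 CPM, so these rates do not cover Il1b and Saa3, which averaged less. The rates are also averages over genes of differing variability, so they do not give the chance of a call for any single gene. Among the 10 genes the SE of the log2 fold change ran from 0.10 for Nfkbia to 0.55 for Lcn2. No differences in tissue content between libraries were simulated. No library was a copy of another (chi-square over degrees of freedom at least 28.8 in 28 pairs). Shared windows of 75 bases were counted in GENCODE transcripts on both strands. The labels give 4 females per group and name no litters or batches; the suffix in the titles is not explained.

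All 10 genes are named. From each pathway list the genes that passed are named, or otherwise the 2 with the smallest unadjusted p. The highest or called marker genes are named where a result turns on them. Tnf, S100a9, Retnlg, Csf3r, Ngp, Mmp9, Ly6g, Cxcr2, Cd68, Ly6c2, Adgre1, Itgam, Lyz2, Mrc1, Krt7, Krt8, Wfdc2 and Epcam were named after their values were seen. The genes and lists were chosen with earlier results of these data known.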

Additional observations from a re-analysis of the deposited data

Results flagged for a closer look

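In 58 groups of 4 libraries (the 10 genes, 17 named pathway genes and 2 ratios), 3 held a library far from the other 3 by Dixon's criterion, and chance alone flags about 1 in 20 groups. All 3 were DT replicate 1. The ratio of Il1rn to Il1b counts was 4.86 there, against 2.56 to 2.85 in the other DT libraries. Tbxas1 measured 7.81 CPM there, against 5.57 to 5.78 CPM. Fga measured 0.28 CPM there, against 0.0874 to 0.11 CPM. This library also had the lowest decidual and the highest muscle marker sum, whose part in these values was not tested.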

How the results depend on the processing

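In the 17 alternative fits the 10 genes gave 170 estimates, of which 0 passed the test (smallest adjusted p 0.159) and 11 changed sign; 9 of the 17 fits called at most 1 of all genes, so a count of 0 there says nothing of stability. Signs turned for Nfkbiz (-0.071 with the replicate block on numbers 1 and 4, and -0.059 on the same 4 libraries without it) and Tnfaip3 (0.0083 scaled by library size only). With PBS replicates 1 and 2 left out, values were 0.36 for Il6, 0.34 for Tnfaip3, 0.24 for Lcn2, 0.71 for Osm, 0.0011 for Otulin and 0.012 for Fga; there 7 of 10 genes were positive, and 3 (Il1rn, Tnfaip3 and Saa3) had an unadjusted p under 0.05, against 3.65% of all genes. Nfkb2 was 0.018 scaled by library size only, a scaling that moved the median of all genes to 0.12. Leaving out 1 library at a time, Il1b ran from -0.39 to 0.007, Il6 from -0.45 to 0.15, Tnfaip3 from -0.29 to 0.065, the log2 difference of the Il1rn to Il1a ratio from 0.59 to 0.92 (exact permutation p 0.0286 without PBS replicate 4, otherwise up to 0.114), that of Il1rn to Il1b from 0.23 to 0.54, and the pathway genes called from 0 to 3. Pathway genes called numbered 1 by limma voom, 0 without PBS replicates 1 and 2, and 0 on numbers 1 and 4 with or without the replicate block. Irf1 lost its call with RLE factors (adjusted p = 0.0548) and limma voom, Tbxas1 with limma voom and library-size scaling, and Casp1 gained one under library-size scaling (adjusted p = 0.048). On numbers 1 and 4 the log2 difference of the Il1rn to Il1b ratio was 0.94, so the choice of libraries moved it. With and without the replicate block this difference is equal by construction, so it says nothing of the block. The shared numbers are not stated to pair females, and deviations of same-numbered libraries correlated at -0.49 (number 1) and 0.32 (number 4); the fit of those 4 libraries without the block was added after seeing the data. The cause of these shifts was not tested. Depth limits Saa3, with as few as 19 reads in a library.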
